A study of Mus musculus with 6 samples.

Results

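Rab GTPases are small GTP-binding proteins that direct vesicle traffic between the membranes of a cell. The genes described here are the 59 protein-coding genes, of 54532 genes in the deposited table, whose symbol is Rab followed by a number and at most 1 letter and 1 further digit. Rab-like genes with other symbols and Rab pseudogenes were not members. RNA was sequenced from 6 mouse libraries labelled MIN6, a beta cell line derived from an insulinoma. The control group holds 3 libraries titled shc. The other group holds 3 libraries titled sh2 and labelled as a PP2Ac knockdown, where PP2Ac stands for the subunit of protein phosphatase 2A that carries its activity. The title of the series concerns lipid toxicity in beta cells, but no label names a lipid treatment, a hairpin sequence, a vector or a clone for either group. Whether the replicates were grown as separate cultures is stated nowhere, so the p-values measure only the spread between these libraries, which may be technical. The comparison asks which Rab transcripts differ between the libraries labelled knockdown and those labelled control.

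A Rab protein is inactive with GDP bound and active with GTP bound. Exchange factors load it with GTP at a given membrane, effectors such as tethers and motors bind the active form, and GTPase-activating proteins switch it off. Lipid groups added to cysteines at the end of the protein, with the help of escort proteins, anchor it in the membrane. Each compartment carries its own Rabs, and in beta cells Rab3 and Rab27 proteins are known for bringing insulin granules to the plasma membrane.

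Values are FPKM, a read number corrected for the length of the gene and for a total set for each library. Means are given ± SD over the 3 libraries of a group. The deposited FPKM values correspond to between 14614737 and 16030939 reads a library. Those reads differed from the totals behind the FPKM values by -2.36% to 1.55%. Read ratios corrected for depth use the totals behind the FPKM values. Ppp2ca, which encodes the targeted subunit, was at 42.5, 34.6 and 35.6 FPKM in the control libraries and at 10.1, 11.4 and 10.9 FPKM in the knockdown libraries. That is 28.7% of control, and the groups did not overlap (exact permutation test, two-sided, p = 0.1, the smallest that 3 against 3 libraries allow). Ppp2cb, the gene of the other catalytic subunit, differed by -0.21 on the log2 scale (limma adjusted p = 0.0660). Defining beta cell markers were at or near 0 under both labels: 6 of 12, among them Ins1, Ins2, Nkx6-1 and Slc2a2, had no read in any library, and only Pdx1 and Mafa had a mean FPKM of at least 1. The 12 markers summed to between 3.01 and 4.70 FPKM in control and between 8.16 and 9.78 FPKM in knockdown. Of 8 mesenchymal markers the 6 tested were higher in knockdown. The 8 summed to between 504 and 577 FPKM in control, where Vim alone gave 426 ± 27.3 and Col3a1, Pdgfra, Dcn and Thy1 were below 1, and to between 1150 and 1313 FPKM in knockdown. Of the other lists, 1 of 4 neuronal markers (Tubb3, higher), 1 of 6 epithelial markers (Krt18, lower) and 1 of 6 immune markers (Cd68, lower) reached a mean FPKM of 1, and no endothelial, other islet or acinar marker did. The summed ranges in control and knockdown were 1.64 to 2.05 and 4.24 to 4.79 FPKM for the neuronal, 17.3 to 20.8 and 7.01 to 8.92 FPKM for the epithelial and 14.4 to 21.4 and 2.77 to 3.35 FPKM for the immune markers. Among their defining members Snap25, Epcam, Itgam, Cd3e and Adgre1 had no read, and Cd79a, below 1 FPKM, was higher in every knockdown library. The libraries are therefore named by their labels only, and the part these marker shifts have in the Rab differences was not tested.

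The members share a short stretch of coding sequence that the naming rule did not use. It encodes the loop that holds the phosphates of GTP or GDP, and 57 of the 59 coding sequences hold it in the form searched for; Rab40b and Rab40c do not. The 24 bases are printed for Rab29, the member with the largest rise, and for members of the Rab1, Rab3, Rab7 and Rab33 pairs, since these close relatives differed in direction (Rab1 and Rab7) or in the size of the estimated change (Rab3 and Rab33, where the difference in size was not tested). Capitals mark the codons of the first glycine and of the glycine, lysine and serine or threonine that end the loop. Sequences are from the GENCODE M21 transcripts, 5′ to 3′ on the coding strand.
Rab29: GGGgacgccgccgttGGCAAGACG
Rab1a: GGCgattctggggttGGAAAGTCC
Rab1b: GGTgactccggcgtgGGCAAGTCG
Rab3a: GGGaacagcagcgtgGGCAAAACC
Rab3d: GGGaacagcagcgtgGGCAAGACA
Rab7: GGGgactctggtgttGGAAAGACC
Rab7b: GGTgcacttggcgtgGGAAAGACC
Rab33a: GGGgattccaacgtgGGCAAGACC
Rab33b: GGCgactcgaacgtgGGCAAGACG

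The other shared feature was at the end of the coding sequence, where the lipid groups are attached. At least 2 of the last 5 codons encoded cysteine in 50 of the 59 members, and 1 codon did in the other 9, which were Rab8a, Rab8b, Rab13, Rab18, Rab23, Rab28, Rab38, Rab40b and Rab40c. The last 18 coding bases of 4 members show the arrangements, with the cysteine codons in capitals: side by side at the very end, separated by 1 codon, followed by 2 codons, or single.
Rab29: tctggctggacaTGCTGC
Rab3d: ccgagcagcTGCagcTGT
Rab5c: agccagTGCTGCagcaac
Rab13: aacaagTGCttgttaggc
Coding sequences ran from 194 to 973 codons, with a median of 215, and the longest belonged to Rab44. Over the aligned coding bases, Rab1a and Rab1b were 77.6% identical, Rab3a and Rab3d 76.8%, Rab33a and Rab33b 68.8%, and Rab7 and Rab7b 64.5%.

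Of the 59 members, 37 reached a mean FPKM of 1 over the 6 libraries and were tested, and 22 did not. Among the 37 tested, 15 were higher in knockdown, 11 were lower and 11 did not pass the limma test at an adjusted p of 0.05. The 26 called members are 70.3% of those tested, beside 62.4% of the 11652 genes tested in the whole table. The corresponding background shares were 33.3% of all genes called higher and 29.1% called lower. The groups did not overlap in 29 of the 37 members (78.4%), beside 68.1% of all genes tested, and 3 members were called with a change of at least 1 on the log2 scale, where 9.86% of all genes were. The median log2 fold change was 0.10 over the tested members and 0.03 over all tested genes. Most Rab changes were therefore small, and the share of members called was near the background of the table. Without the first control library 7 members were called lower in place of 11, because Rab10, Rab18 and Rab23 missed the threshold and Rab33a fell below a mean of 1.

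Summed over the family, Rab transcripts were at similar levels under both labels: 975 ± 47.7 FPKM in control and 1018 ± 18.4 FPKM in knockdown, with ranges of 939 to 1029 and 997 to 1032 that overlapped. The 10 most abundant members held 68.4% ± 0.515 of this sum in control and 66.4% ± 0.717 in knockdown. Rab7, the late endosome GTPase, was the most abundant in control at 174 ± 17.1 FPKM, followed by Rab2a at 89.0 ± 3.92, Rab5c at 87.3 ± 3.25 and Rab1b at 78.1 ± 4.93. Rab2a and Rab5c did not differ beyond their spread in control. In control, the members that fell had a median level of 27.1 FPKM, those that rose 8.88 FPKM and those not past the threshold 18.3 FPKM. In bulk RNA, fewer cells with a transcript and less of it per cell cannot be told apart.

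**Figure D1:**
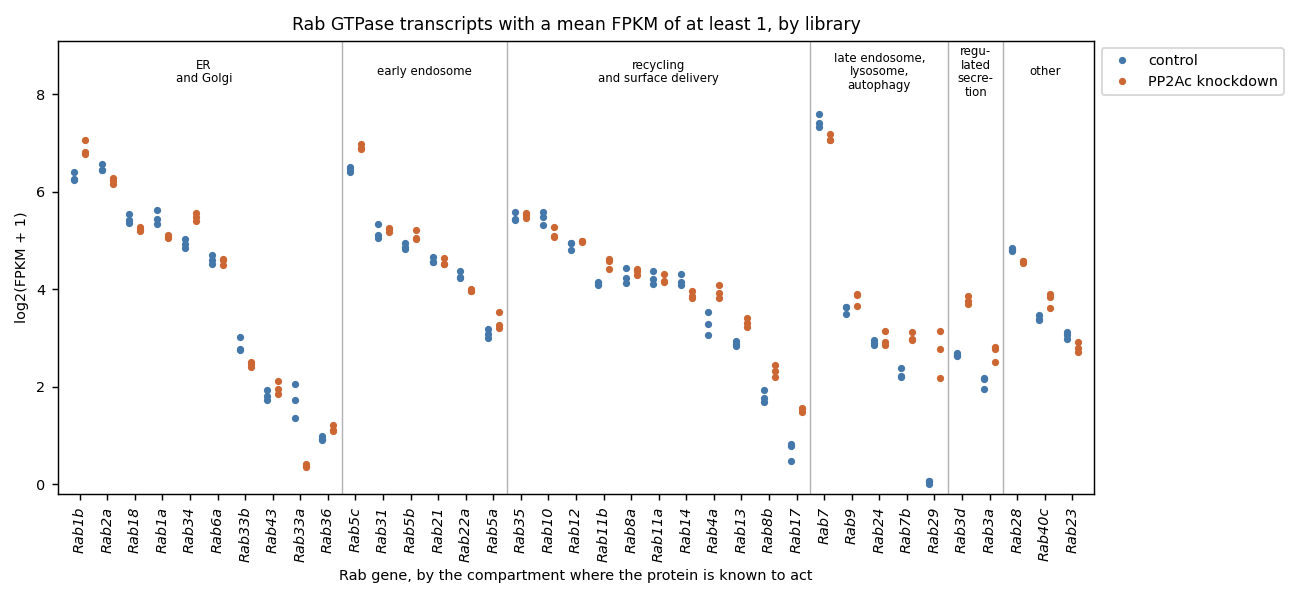
Level of each of the 37 tested Rab transcripts, as log2(FPKM + 1) on the vertical axis, with genes grouped along the horizontal axis by the compartment of the protein; each point is 1 library, blue for control and orange for PP2Ac knockdown. The control libraries of Rab29 lie at the bottom of the scale and its knockdown libraries well above them, whereas most other members shift by less than 1 unit.

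Among the late endosome, lysosome and autophagy Rabs, Rab29 and Rab7b rose while Rab7, the most abundant member, fell. Of the 6 members of this group 5 were tested, with 3 higher, 1 lower and 1 not past the threshold. Because Rab7 dominates it, the group's share of all Rab FPKM was 20.1% ± 0.784 in control and 16.6% ± 0.792 in knockdown, and its ranges did not overlap.

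Rab29 acts at the Golgi and at lysosomes and is known for recruiting the kinase Lrrk2. It lies on chromosome 1 at 131867224 to 131872887, plus strand, in the coordinates of the deposited table (GRCm38 per the submitters' processing notes). Its control libraries held 1, 0 and 1 reads, or 0.0426, 0 and 0.0415 FPKM. The knockdown libraries held 178, 131 and 78 reads, or 7.84, 5.83 and 3.56 FPKM. Every knockdown library was far above every control library, with the first knockdown library the highest and the third the lowest. Corrected for depth, the ratio of reads was 203, with a 95% interval of 55.8 to 1681 that covers counting error only. On the log2(FPKM + 1) scale the rise was 2.66 (SE 0.219, limma adjusted p = 3.1e-05). That value depends on the low control level: with a pseudocount of 0.1 it was 5.46, and with limma voom on the recovered reads 6.93. Among the other members, the coding sequence closest to Rab29, by identical bases over the longer sequence, was that of Rab38, at 63.8%. Over the aligned bases alone they were 68.4% identical. Rab38 had 1 read in 1 control library and none elsewhere.

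The 250 bases before the RefSeq start are shown for Rab29, for Rab3d and for Rab33a, the members called with a change of at least 1 on the log2(FPKM + 1) scale, from the RefSeq promoter table of GRCm38.p6. Each is written 5′ to 3′ on the strand of its gene. The windows are chr1:131867027-131867276 on the plus strand for Rab29, chr9:21918184-21918433 on the minus strand for Rab3d and chrX:48519035-48519284 on the plus strand for Rab33a. Capitals mark an inverted repeat in the Rab29 window and, on either strand, matches to TGACG, a short form of the cyclic AMP response element, and to the GC box, written GGGCGG. These matches do not overlap. The gene as listed in the deposited table starts further upstream, so that the last 53 bases of the Rab29 window, with its TGACG, and the last 9 bases of the Rab3d window lie inside it.
Rab29: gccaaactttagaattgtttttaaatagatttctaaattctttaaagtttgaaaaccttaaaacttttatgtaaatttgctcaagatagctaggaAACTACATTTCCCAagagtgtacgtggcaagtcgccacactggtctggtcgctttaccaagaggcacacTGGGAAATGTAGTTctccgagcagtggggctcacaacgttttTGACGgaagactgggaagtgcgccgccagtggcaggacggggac
Rab3d: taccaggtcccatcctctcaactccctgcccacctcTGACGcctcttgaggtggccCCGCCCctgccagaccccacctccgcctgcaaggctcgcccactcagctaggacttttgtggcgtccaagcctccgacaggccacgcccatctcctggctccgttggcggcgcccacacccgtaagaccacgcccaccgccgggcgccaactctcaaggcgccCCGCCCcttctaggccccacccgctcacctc
Rab33a: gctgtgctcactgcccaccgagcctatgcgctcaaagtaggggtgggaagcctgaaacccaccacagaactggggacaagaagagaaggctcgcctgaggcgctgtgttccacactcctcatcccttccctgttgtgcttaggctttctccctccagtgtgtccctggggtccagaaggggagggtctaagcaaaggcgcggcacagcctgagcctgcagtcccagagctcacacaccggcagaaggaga
The GC content of the Rab29 window was 44% with 9 CpG dinucleotides, that of Rab3d 69.2% with 18, and that of Rab33a 60.4% with 7. Over 60 Rab promoters of 48 members the medians were 60.2% and 15, and over all 32851 promoters 52.4% and 6. The longest word of the Rab29 window that also occurs in it as its reverse complement is AACTACATTTCCCA, 14 bases that start at positions 96 and 165 of the window. This search was chosen after the sequence had been seen. In either orientation, 0.180% of all promoters and, among the 60 Rab promoters, that of Rab29 only held the word. Rab29 also held TGACG once. TGACG was held by 17.8% of all promoters and 24 of the 60 Rab promoters. In the Rab3d window the GC box GGGCGG occurred at 2 places, and 32.7% of all promoters and 40 of the 60 Rab promoters held it. None of these 3 windows held, on either strand, the E-box CACGTG, the CCAAT box, the full cyclic AMP response element TGACGTCA, the AP-1 site TGANTCA, the stress response element TGATGNAA or the TATA box in the form TATAAA. A match is a description of the letters and not of a bound factor.

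Rab7b, which carries cargo from late endosomes to the Golgi, lies 151.785 kb from Rab29 on the same strand. It was at 3.68, 3.6 and 4.20 FPKM in control and at 7.76, 6.93 and 6.78 FPKM in knockdown. All knockdown libraries were above all control libraries, and the rise was 0.76 (SE 0.0858, adjusted p = 0.00014). Of 11 other protein-coding genes within 200 kb of Rab7b and Rab29, 6 were tested. Slc41a1 (0.46), Nucks1 (0.27), Fam72a (0.71) and Srgap2 (0.32) were higher on the log2 scale, and Elk4 (-0.48) and Mfsd4a (-0.47) were lower. These 6 all passed the limma test, with an adjusted p of at most 0.0116. Of all genes tested 62.4% passed, 33.3% higher and 29.1% lower, so calls in both directions are common in the table. The other 5, Avpr1b, Ctse, Slc26a9, Pm20d1 and Slc45a3, were at or near 0 in all libraries. The tested genes before Rab29 all rose, those after it moved in both directions, and none changed by as much as Rab29.

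**Figure D2:**
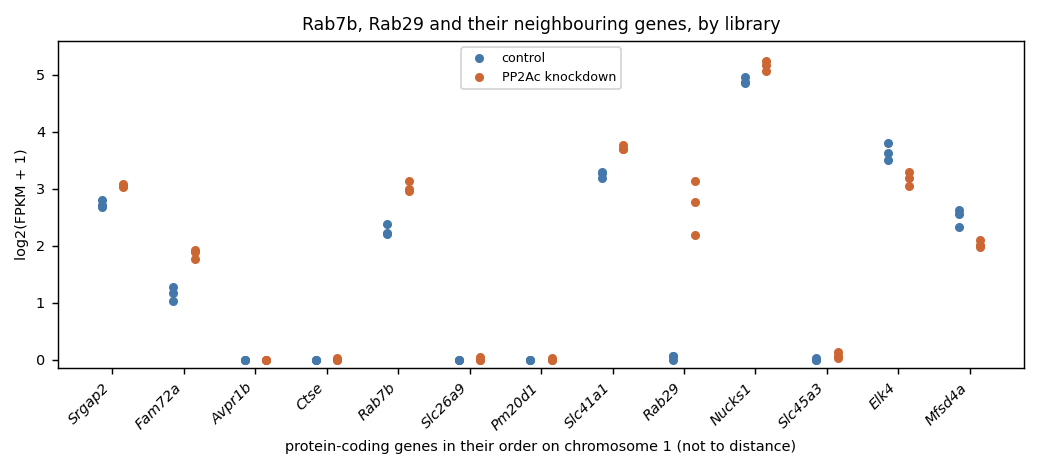
Level of Rab7b, Rab29 and the 11 neighbouring protein-coding genes, as log2(FPKM + 1) on the vertical axis, in their order on chromosome 1 along the horizontal axis; each point is 1 library, blue for control and orange for PP2Ac knockdown. Rab29 goes from at most 0.0426 FPKM in control to at least 3.56 FPKM in knockdown, while its nearest neighbours Slc41a1 and Nucks1 were expressed in both groups.

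Rab7 drives the fusion of late endosomes with lysosomes. Its control libraries were at 193, 170 and 160 FPKM and its knockdown libraries at 144, 133 and 132 FPKM. The groups did not overlap, with the highest value in the first control library. Rab7 fell by 0.35 on the log2 scale (SE 0.0868, adjusted p = 0.00796). Rab9, which returns cargo from late endosomes to the Golgi, was at 11 ± 0.695 FPKM in control and 13.1 ± 1.29 in knockdown (0.23, adjusted p = 0.0483). The Rab9 call was the least stable of the family and was lost in 12 of 17 other settings, including without each of control libraries 1 to 3 (adjusted p = 0.0675, 0.146 and 0.0651) and without knockdown library 1 or 2 (0.154 and 0.138). Rab24, which is tied to autophagy, was at 6.45 ± 0.268 and 6.90 ± 0.855 FPKM and did not pass. Its exons overlap 1258 bases of Prelid1 on the opposite strand, a gene at 122 FPKM in control and 195 in knockdown, and whether the counting used strand is not given in the sources used here. Rab9b had no read in any library.

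Both tested Rabs of regulated secretion rose, but Rab27a and Rab27b, known from granule docking, stayed below 1 FPKM under both labels. Of 8 members, 2 reached a mean FPKM of 1. The sum of the 8 was 9.24 ± 0.579 FPKM in control and 19.4 ± 1.49 in knockdown, or 0.951% ± 0.102 and 1.90% ± 0.113 of all Rab FPKM, without overlap.

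Rab3d, a Rab of secretory granules in exocrine and other secretory cells, lies on chromosome 9 at 21907491 to 21918192 on the minus strand. It was at 5.20, 5.48 and 5.33 FPKM in control and at 12.5, 13.6 and 12.0 FPKM in knockdown. The 3 control libraries were close together and all knockdown libraries were above them. The rise of 1.11 (SE 0.0718, adjusted p = 1.07e-05) took Rab3d to 238% of control. Rab3a, the main Rab3 of neurons and endocrine cells, was at 2.86, 3.56 and 3.45 FPKM in control and at 6.01, 5.81 and 4.66 FPKM in knockdown. Its groups did not overlap, and it rose by 0.60 (SE 0.111, adjusted p = 0.00186). The Rab3a exons overlap 29 bases of Mpv17l2 on the opposite strand, a gene at 32.5 FPKM in control and 61.1 in knockdown.

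The other secretion Rabs were below a mean of 1 FPKM and were not tested. Rab27b, which docks granules, had 66, 50 and 96 reads in control and 122, 117 and 112 in knockdown, or 0.412 ± 0.125 and 0.719 ± 0.0186 FPKM. Its knockdown libraries were all above its control libraries, with a depth-corrected read ratio of 1.74 (95% counting interval 1.46 to 2.07). Rab27a, the paralog that docks insulin granules, had 0, 3 and 1 reads in control and 0, 1 and 0 in knockdown. At these numbers no difference in Rab27a was detectable. Rab3b had 0, 8 and 4 reads in control and 9, 22 and 15 in knockdown, and Rab3c 1, 0 and 0 reads in control and 1, 0 and 1 in knockdown. The Rab3b groups were separate by 1 read, and those of Rab3c overlapped. Rab37, a Rab of mast cell and other granules, had 3, 3 and 7 reads in control and 11, 19 and 9 in knockdown. Those Rab37 groups did not overlap, with a read ratio of 3.15 (1.64 to 6.42). Rab26, a Rab of secretory and synaptic vesicles, had 4, 2 and 2 reads in control and 2, 1 and 3 in knockdown, which overlapped.

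In the ER and Golgi group the paralogs Rab1a and Rab1b moved apart and Rab33a fell furthest. Of 17 members 10 were tested, with 2 higher, 5 lower and 3 not past the threshold. The group held 32.9% ± 0.536 of all Rab FPKM in control and 33.2% ± 1.01 in knockdown, and these ranges overlapped.

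Rab1b and Rab1a both serve traffic from the ER to the Golgi. Rab1b was at 74.6, 83.8 and 76.0 FPKM in control and at 111, 132 and 109 FPKM in knockdown. Its groups did not overlap, the second knockdown library being the highest, and the rise was 0.58 (SE 0.0914, adjusted p = 0.00078). Rab1a was at 48.6, 39.5 and 42.2 FPKM in control and at 32.0, 32.5 and 33.6 FPKM in knockdown. All knockdown libraries were below the lowest control library, and Rab1a fell by 0.39 (SE 0.0850, adjusted p = 0.00391). Rab2a, a Rab of the early secretory pathway and the Golgi, was at 93.5, 86.7 and 86.8 FPKM in control and at 70.7, 73.5 and 76.4 FPKM in knockdown. The Rab2a groups did not overlap, and it fell by 0.27 (SE 0.0677, adjusted p = 0.00802).

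Rab33a and Rab33b act at the Golgi, and Rab33b is known for binding the autophagy protein Atg16l1. Rab33a lies on the X chromosome at 48519285 to 48530232, plus strand. It had 58, 28 and 44 reads in control and 5, 6 and 5 in knockdown, or 3.13, 1.56 and 2.31 FPKM against 0.279, 0.338 and 0.289 FPKM. The control libraries spread widely, and the lowest was still above every knockdown library. Rab33a fell by 1.33 (SE 0.180, adjusted p = 0.000341), to 12.9% of control. The size depends on the scale: it was -2.55 with a pseudocount of 0.1 and -2.81 with limma voom on the recovered reads, and without the first control library the mean was below 1 and no test was made. Rab33b was at 7.10, 5.76 and 5.84 FPKM in control and at 4.33, 4.50 and 4.65 FPKM in knockdown. Rab33b thus fell too, by 0.39 (SE 0.0908, adjusted p = 0.0057), with groups that did not overlap.

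Rab34, which acts in lysosome positioning and cilium formation, was at 29.3, 31.9 and 27.6 FPKM in control and at 43.7, 46.0 and 41.1 FPKM in knockdown. All knockdown libraries were above all control libraries, and it rose by 0.54 (SE 0.0778, adjusted p = 0.000465). Rab6a, which directs transport at the Golgi, was at 25, 21.8 and 23.1 FPKM in control and at 23.5, 21.4 and 23.4 FPKM in knockdown. The Rab6a groups overlapped, and its difference was -0.03 with a 95% interval of -0.20 to 0.14. Rab18, a Rab of the ER and of lipid droplets, was at 42.6 ± 2.61 and 36.8 ± 1.01 FPKM (-0.20, adjusted p = 0.0318). Its call was lost without control library 1 (adjusted p = 0.10) or 3 (0.0613) and without knockdown library 1 (0.0824) or 2 (0.0905). Rab43 (0.15, interval -0.09 to 0.39) and Rab36 (0.20, interval -0.07 to 0.47), both linked to the Golgi, did not pass, although the Rab36 groups did not overlap.

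Early endosome Rabs took a larger part of the family in knockdown, 23.2% ± 0.161 of all Rab FPKM beside 20.5% ± 0.0625 in control, without overlap. The group sum went from 200 ± 9.52 to 237 ± 2.83 FPKM, and Rab5c alone accounted for most of that difference. Of 7 members 6 were tested, with 2 higher, 1 lower and 3 not past the threshold. Rab5c, a Rab of early endosome fusion and the most abundant Rab5, was at 87.3 ± 3.25 FPKM in control and 120 ± 4.69 in knockdown, and rose by 0.46 (SE 0.0669, adjusted p = 0.000534). Rab5b was at 28.5 ± 1.15 and 33.4 ± 2.50 FPKM (0.22, adjusted p = 0.0315). The Rab5b call was lost without control library 2 (adjusted p = 0.0968) or 3 (0.0734), without knockdown library 1 (0.121) and once mitochondrial genes, rRNA and Gm23935 were removed (0.128). Rab5a was at 7.46, 7.0 and 8.14 FPKM in control and at 8.68, 8.18 and 10.6 FPKM in knockdown. The Rab5a groups were separate by a narrow margin, and its difference of 0.25 (SE 0.103, interval 0.01 to 0.48, adjusted p = 0.0657) did not pass, but passed without knockdown library 2 (0.0402) and with the replicate number as a block (0.0220).

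Rab22a, which sorts cargo in early endosomes, was at 19.7, 17.7 and 18.1 FPKM in control and at 14.5, 14.5 and 15 FPKM in knockdown. Its groups did not overlap, and it fell by 0.31 (SE 0.0674, adjusted p = 0.00384). Rab31, its closest relative, was at 35.0 ± 3.77 and 36.5 ± 1.13 FPKM, with a difference of 0.06 and an interval of -0.13 to 0.26. Rab21, which moves integrins, was at 23.2 ± 0.836 and 22.6 ± 1.11 FPKM, with a difference of -0.04 and an interval of -0.19 to 0.12. Rab20, an endosome Rab below the filter, had 1, 1 and 2 reads in control and 7, 4 and 5 in knockdown, without overlap.

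Of the tested Rabs of recycling and delivery to the cell surface, Rab17, Rab4a, Rab8b, Rab13 and Rab11b rose while Rab10 and Rab14 fell. The group of 14 members had 11 tested: 5 rose, 2 fell and 4 did not pass, and its share of all Rab FPKM was 21.0% ± 0.180 in control and 20.9% ± 0.345 in knockdown.

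Rab17, known from epithelial transcytosis, was at 0.722, 0.388 and 0.764 FPKM in control and at 1.92, 1.80 and 1.95 FPKM in knockdown. All its knockdown libraries were above its control libraries, and it rose by 0.84 (SE 0.134, adjusted p = 0.000851), or by 1.5 with a pseudocount of 0.1 and 1.60 with limma voom. Rab4a, which drives fast recycling, was at 7.40, 10.5 and 8.70 FPKM in control and at 14.2, 16.1 and 13.1 FPKM in knockdown. The groups did not overlap, the second library of each being the highest, and Rab4a rose by 0.65 (SE 0.124, adjusted p = 0.00208). Rab8b (0.51), Rab13 (0.44) and Rab11b (0.41) also rose, from 2.50, 6.36 and 16.4 FPKM in control to 3.99, 9.0 and 22.2 FPKM in knockdown. These serve surface delivery, tight junctions and the recycling endosome.

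Rab10, which brings the glucose transporter Slc2a4 and other cargo to the surface, was at 47.0, 39.2 and 43.8 FPKM in control and at 33.1, 32.6 and 37.9 FPKM in knockdown. The groups were separate by a small gap between control library 2 and knockdown library 3. Rab10 fell by 0.32 (SE 0.0909, adjusted p = 0.0152), and the call was lost without control library 1 (0.0511) or knockdown library 1 (0.0536) or 2 (0.0531). Rab14, which links the Golgi and endosomes, was at 18.9, 15.9 and 16.8 FPKM in control and at 14.6, 13.2 and 13.6 FPKM in knockdown. Every knockdown library was below every control library, and Rab14 fell by 0.30 (SE 0.0820, adjusted p = 0.0128).

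Rab8a, a Rab of surface and cilium delivery, was at 20.7, 17.7 and 16.6 FPKM in control and at 18.6, 19.8 and 20.4 FPKM in knockdown. Its groups overlapped, with a difference of 0.10 and an interval of -0.11 to 0.30. Rab11a, the main Rab of the recycling endosome, was at 19.8, 17.6 and 16.2 FPKM in control and at 18.8, 16.8 and 16.9 FPKM in knockdown. The Rab11a groups overlapped as well, with a difference of -0.02 and an interval of -0.22 to 0.18. Rab35 (0.03, interval -0.13 to 0.19), which acts in recycling at the plasma membrane, and Rab12 (0.08, interval -0.07 to 0.24), which acts on receptor turnover, did not pass either. The Rab35 groups overlapped, but those of Rab12 did not.

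Members outside these groups were few. Rab28, a Rab of cilia and photoreceptors, fell from 27.1 ± 0.582 to 22.7 ± 0.360 FPKM (-0.25, adjusted p = 0.00744). Rab40c, which joins a ubiquitin ligase, rose from 9.66 ± 0.425 to 12.8 ± 1.44 FPKM (0.37, adjusted p = 0.00702). Rab23, which restrains Hedgehog signalling, was at 7.29 ± 0.384 and 6.03 ± 0.523 FPKM (-0.24, adjusted p = 0.0323). Its call was lost without control library 1 (0.0742) or 3 (0.0978), without knockdown library 1 (0.0819) or 2 (0.106) and without the filter on low values (0.0640). Rab32 and Rab38, the Rabs of melanosomes and other lysosome-related organelles, had no read and 1 read in all 6 libraries together. For Rab32 the limit that a count of 0 allows, 3 reads, was between 0.0781 and 0.0859 FPKM depending on the library.

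**Figure D3:**
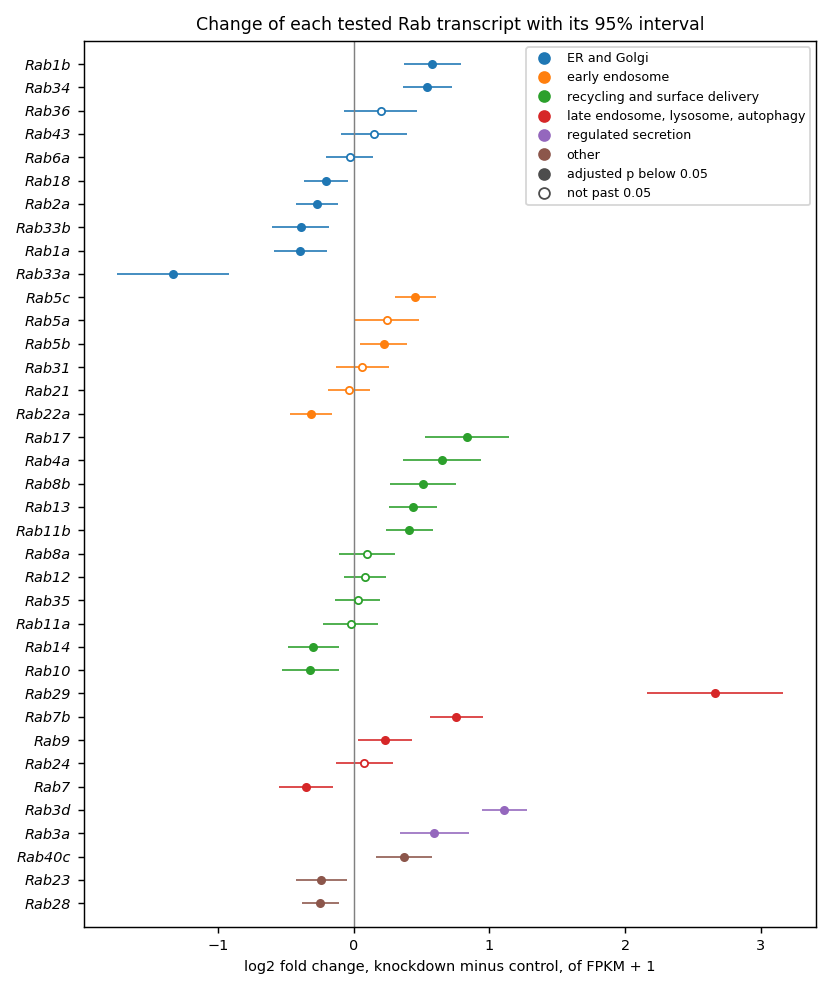
Log2 fold change of FPKM + 1, knockdown minus control, on the horizontal axis for each of the 37 tested Rab transcripts, listed by compartment on the vertical axis; points are estimates from 3 against 3 libraries, bars are 95% intervals, and filled points passed the adjusted p of 0.05. Rab29 (2.66) and Rab33a (-1.33) lie furthest from 0, and both directions occur in every compartment but regulated secretion.

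In 10 of 16 subfamilies the share of at least 1 member did not overlap between the groups, a ratio that does not depend on the scaling between libraries. No background was computed for such shares. For FPKM itself, the groups did not overlap in 68.1% of all genes tested, but that is a share of single genes and not of subfamilies. Whether the count of subfamilies is particular to the Rab genes was not tested. In the other 6, the Rab6, Rab9, Rab27 and Rab40 genes and the Rab26 with Rab37 and Rab34 with Rab36 pairs, all shares overlapped. The Rab9 share could only be 100%, since Rab9b had no read, and Rab6b and Rab40b had at most 4 reads in any library. Subfamilies with a sum of 0 in some library, Rab32 with Rab38 and Rab39 with Rab39b, were left out of the 16. Rab1b made up 60.5%, 68.0% and 64.3% of Rab1 FPKM in the control libraries and 77.7%, 80.2% and 76.5% in the knockdown libraries. Its share thus went from 64.3% ± 3.71 to 78.1% ± 1.92 without overlap, while the Rab1 sum went from 122 ± 2.90 to 150 ± 12.3 FPKM. Rab33b made up 73.2% ± 4.85 of Rab33 FPKM in control and 93.7% ± 0.608 in knockdown, with Rab33a almost lost from the sum. Rab7b, minor beside Rab7, went from 2.17% ± 0.354 to 4.98% ± 0.127 of their sum. In the group of Rab8a, Rab8b, Rab10 and Rab13, Rab10 went from 61.4% ± 1.83 to 51.4% ± 1.97, while the sum stayed near its level (70.5 ± 5.11 and 67.1 ± 3.04 FPKM). Rab11b made up 47.6% ± 2.75 of Rab11 and Rab25 FPKM in control and 55.6% ± 1.59 in knockdown, and Rab11b was the leading transcript in all 3 knockdown libraries but in only 1 control library. Smaller differences without overlap were those of Rab31 against Rab22a (65.3% ± 1.35 and 71.3% ± 1.01), Rab3d in the Rab3 group (61.4% ± 2.61 and 68.7% ± 1.93) and Rab5c in the Rab5 group (70.8% ± 0.945 and 73.8% ± 1.69). Rab4a held 93.7% ± 0.966 and 96.3% ± 0.412 of Rab4 FPKM. The Rab2 shares were barely separate: Rab2b, itself below the filter, held at most 1.077% in control and at least 1.082% in knockdown.

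**Figure D4:**
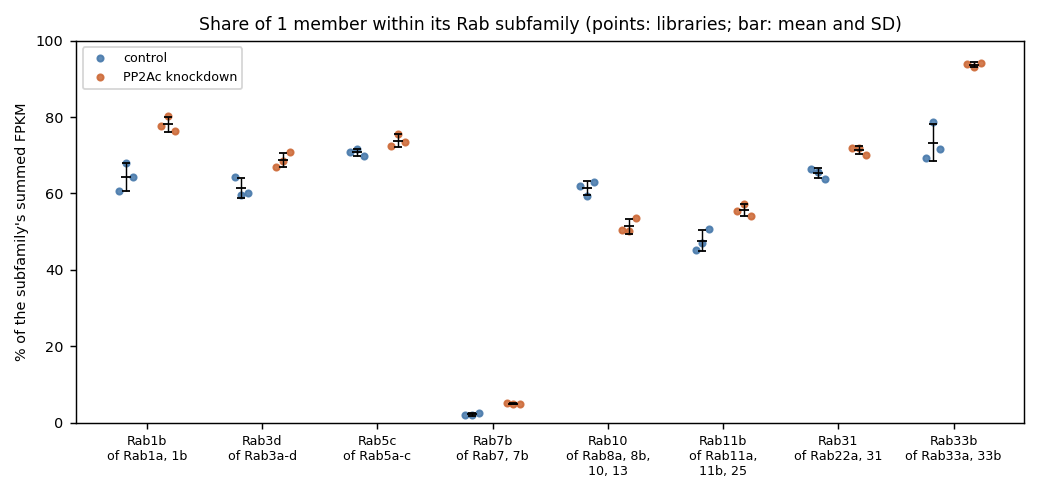
Share of 1 member in the summed FPKM of its subfamily, in percent on the vertical axis, for 8 of the 10 subfamilies with shares that did not overlap along the horizontal axis; points are libraries, blue for control and orange for PP2Ac knockdown, and black marks give mean and SD (n = 3). The mean Rab1b share is 64.3% in control and 78.1% in knockdown, and the mean Rab10 share 61.4% and 51.4%.

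Processed copies of 2 members were counted separately and moved the same way as their parent genes. Rab11b-ps2 was at 13.7 ± 0.307 and 18.5 ± 2.58 FPKM (0.41, adjusted p = 0.00627) and Rab7-ps1 at 18.6 ± 2.80 and 12.4 ± 1.89 FPKM (-0.55, adjusted p = 0.00684). How reads that match both a parent and its copy were assigned is unknown, and the levels of Rab7 and Rab11b are uncertain to that extent. Rab6a shares 708 exon bases with Mrpl48 on the opposite strand, and Rab26 shares 267 with Traf7 on the same strand, a gene at 29.9 FPKM in control. The few Rab26 reads cannot be told apart from reads of Traf7 there. On the same strand, Rab43 shares 4164 exon bases with Gm45140 and Rab4b 1280 with Gm21983, genes at 0.0358 and 0.0123 FPKM in control. How reads in these shared stretches were assigned is unknown, so the Rab43 and Rab4b levels are uncertain to that extent.

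The 22 members below the filter were mostly near silent, 10 of them with fewer than 10 reads in all libraries together and 3 of those (Rab9b, Rab32 and Rab39) with none. Of the 19 with a read in some library, 7 (36.8%) had groups that did not overlap, beside 22.2% of all genes below the filter with a read and 28.8% of the protein-coding ones. Knockdown was above control in 5, which were Rab27b, Rab3b, Rab20, Rab37 and Rab15, and below it in 2, Rab42 and Rab44. Rab15, an endosome Rab, had 0, 1 and 0 reads in control and 4, 2 and 3 in knockdown. Rab42, a Golgi-linked member, had 8, 15 and 7 reads in control and 4, 0 and 3 in knockdown. Rab44, the long member with the loop far into its coding sequence, had 8, 12 and 7 reads in control and 2, 2 and 4 in knockdown. Rab2b, Rab30, Rab4b and Rab25 had more reads but overlapped, at 0.933, 0.779, 0.606 and 0.275 FPKM in control and 0.970, 0.980, 0.544 and 0.171 FPKM in knockdown. Rab40b, Rab19, Rab6b and Rab39b had at most 4 reads in any library.

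Genes that act on Rab proteins changed in both directions too. Of 142 such genes 108 were tested, of which 36 rose, 36 fell and 36 did not pass, so that 66.7% were called beside the 62.4% of all genes. Among 8 genes of prenylation and membrane cycling 4 fell and 1 rose, with a median of -0.24. Rabggtb, the catalytic subunit that attaches the lipid groups to Rab cysteines, was at 95.7, 95.3 and 98.4 FPKM in control and at 49.8, 49.6 and 53.4 FPKM in knockdown. Its groups lay far apart, and it fell by 0.91 (SE 0.0639, adjusted p = 1.5e-05). Chm, the Rab escort protein, fell from 3.53 ± 0.371 to 1.53 ± 0.337 FPKM (-0.85), and Rabggta, the other transferase subunit, from 10.3 ± 0.298 to 8.42 ± 0.668 FPKM (-0.27).

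Exchange factors were split, 8 of 24 tested being higher and 10 lower, with 6 not past, and a median of -0.02. Without control library 3 or knockdown library 2 the number called in this list was 11 or 10 in place of 18. Dennd2d, an exchange factor for Rab9, fell from 11.5 ± 0.517 to 2.01 ± 0.156 FPKM (-2.05). Mon1a, part of the exchange factor for Rab7, rose from 2.73 ± 0.263 to 6.82 ± 0.200 FPKM (1.07). Rin2, which acts on Rab5, rose from 0.991 ± 0.136 to 3.76 ± 0.0559 FPKM (1.26). The TRAPP complex, which activates Rab1 and Rab11, had 2 of 14 subunits higher, 4 lower and 8 not past. Its subunits with the smallest p were Trappc8 (-0.55), Trappc6b (-0.43) and Trappc9 (0.52). GTPase-activating proteins had 15 of 29 higher, 10 lower and 4 not past, with a median of 0.25. Those with the smallest p were Tbc1d2b (0.96), Tbc1d1 (0.73) and Tbc1d10b (0.69). The share called was 86.2% of the GTPase-activating proteins tested, 75% of the exchange factors, 62.5% of the prenylation list and 42.9% of the TRAPP subunits. It was 50% of the endosome and Golgi effectors and 80% of the 5 Rab-like GTPases tested, beside 62.4% of all genes. No list was tested as a set.

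Among the effectors the early endosome gene Eea1 fell most on the log2(FPKM + 1) scale. Eea1, the tether that active Rab5 recruits, was at 27.0, 20.9 and 25.6 FPKM in control and at 4.52, 4.25 and 5.69 FPKM in knockdown. Its groups did not overlap, and it fell by 2.13 (SE 0.122, adjusted p = 7.03e-06), to 19.7% of control, whereas Rab5c rose. In the list of endosome and Golgi effectors 5 of 24 were higher, 7 lower and 12 not past, among them Inpp5b (-0.73) and Rabep2 (0.61). Only 2 of 14 secretion effectors were tested: Myo5a, the granule motor, fell from 16.8 ± 1.91 to 8.38 ± 1.11 FPKM (-0.92), and Rims2 was at 1.91 ± 0.182 and 1.70 ± 0.155 FPKM and did not pass. Below the filter, Exph5 had 71, 54 and 59 reads in control and 0, 4 and 6 in knockdown. Unc13d, also below it, had 14, 18 and 17 reads in control and 81, 107 and 46 in knockdown. The remaining secretion effectors had at most 22 reads in any library. Among kinases and phosphatases of Rab proteins Lrrk1 rose from 10.3 ± 1.11 to 18.9 ± 1.04 FPKM (0.82). Lrrk2, the kinase tied to Rab29, was at 3.86 ± 0.422 and 4.09 ± 0.414 FPKM and did not pass (0.07, adjusted p = 0.567). Rab-like GTPases had 4 of 5 higher and none lower, including Ift22 (0.92), Ift27 (0.72) and Rabl2 (0.66), which act in cilia.

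**Figure D5:**
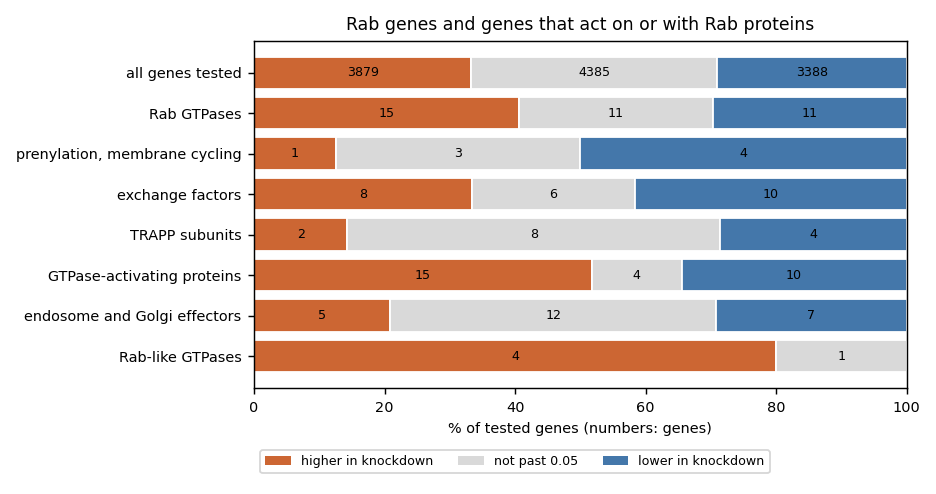
Percent of tested genes that were higher, not past an adjusted p of 0.05 or lower in knockdown, on the horizontal axis. Rows are all genes, the Rab GTPases and 6 lists of Rab regulators, effectors and Rab-like GTPases. Numbers in the bars are genes. The Rab GTPases (15, 11 and 11) lie near the mix of all genes, and the GTPase-activating proteins (15, 4 and 10) hold the smallest grey share.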

How the data were processed

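Libraries were made from Trizol-extracted RNA with the Illumina TruSeq RNA kit, per the labels' protocols. The authors deposited 1 table of FPKM values for 6 libraries, 3 in each group. Per the submitters' processing notes the build is GRCm38 (mm10); the aligner, the counter, the use of strand and the scaling are not given in these sources. FPKM times gene length was a whole multiple of 1 step in 100% of non-zero values (within 0.01), which gave reads per gene. Replicates correlated at 0.986 to 0.989 across genes and differed beyond sampling noise, so none were merged; libraries of different groups correlated at 0.911 to 0.934. Mitochondrially encoded genes held 3.14% of reads in control and 1.33% in knockdown.

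Genes whose FPKM averaged at least 1 over the libraries were tested with limma 3.58.1 (R 4.3.3; lmFit, then eBayes with trend) after adding 1 and taking log2. P-values were adjusted by Benjamini-Hochberg over all 11652 genes and called at 0.05. A positive log2 fold change means higher in knockdown; adding 1 understates the change of low genes. Only the limma and limma voom fits were tried on simulated data, in which far fewer genes changed than were called here. Sums and shares carry no test. Other settings were pseudocounts of 0.1 and 0.5, filters, scalings, variance models, limma voom on recovered reads, the replicate number as a block and each library left out in turn; scaling to recovered totals was added after the data were seen. Intervals of read ratios cover counting error only.

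The members and lists were chosen with earlier results of these data known. Given in full were the 8 largest rises and falls among called members. So were the Rab3 and Rab27 genes, Rab26, Rab37, Rab1a, Rab2a, Rab5a, Rab6a, Rab7, Rab8a, Rab10 and Rab11a. From each list of Rab regulators, effectors or Rab-like GTPases, up to 3 called genes with the smallest p were given. Rims2 and Lrrk2 were added after their values were seen. Coding stretches came from GENCODE M21, in which 99.9% of the table's gene identifiers occur, and promoters from RefSeq, where 48 of 59 members had an entry. Protein sequences were not used here. Python 3.11.15, pandas 2.3.3, scipy 1.17.1 and Biopython 1.88 prepared the tables.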

Additional observations from a re-analysis of the deposited data

How the results depend on the processing

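Of the 26 calls, 21 held in each of the 17 other settings in which the gene was tested (13 higher, 8 lower), and none changed direction. A mean FPKM of at least 5 left Rab3a, Rab8b, Rab17, Rab29 and Rab33a untested. Calls of Rab9 (12 settings), Rab23 (5), Rab18 (4), Rab5b (4) and Rab10 (3) were lost in some; the cause was not tested. Leaving out 1 library gave 13 to 15 members higher and 7 to 11 lower, with 7 without control replicate 1. Members not called changed sign near 0: Rab35 (-0.043) and Rab31 (-0.0092) after removal of mitochondrial genes, rRNA and Gm23935, which moved the median of all genes from 0.03 to -0.04 and left 13 members higher and 11 lower; with 1 library left out, Rab6a (-0.074 to 0.018, above 0 without control replicate 1 or knockdown replicate 2), Rab11a (-0.086 to 0.052, above 0 without control replicate 1 or knockdown replicate 2 or 3) and Rab24 (-0.0063 to 0.14, below 0 without knockdown replicate 3). Without a filter 26998 genes and 56 members were tested and 15 members were higher and 10 lower; at a mean of 5, 30 members, with 11 and 10. Genes called lower numbered 2208 at a mean of 5 beside 3388. Without a filter the prenylation list had 3 called genes in place of 5 and the secretion effectors 3 in place of 1. Rab36 passed without the trend (adjusted p = 0.0427). The planned median-of-ratios scaling gave 1 factor, 1.0071, for every library and so shifted no library against another. The deposited values thus already had equal factors of this kind, for a reason the sources do not state. This setting is counted among the 17 but could not test how the calls depend on scaling. Deviations of same-numbered libraries correlated weakly (-0.0107, 0.159 and 0.0518). With 3 libraries in each group these values cannot decide whether the replicate numbers pair the libraries. With the replicate block 15 members were higher and 11 lower, 26 in all, and 7363 genes were called. Ppp2ca ranged from -1.81 to -1.61. For the 10 members with fewer than 10 reads in all, differences were not detectable at this depth.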
